A study of Mus musculus with 4 samples.

Results

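The 10 genes described here encode amino acid transporters of the plasma membrane: Slc1a4, Slc1a5, Slc3a2, Slc7a1, Slc7a5, Slc7a6, Slc7a11, Slc38a1, Slc38a2 and Slc38a4. They were examined in chromatin immunoprecipitation sequencing of phospho-CREB from MC3T3-E1 cells, a mouse pre-osteoblast cell line. The antibody recognised CREB phosphorylated at serine 133, the residue that protein kinase A modifies. Cells had received DMSO vehicle or 100 nM forskolin, an activator of adenylyl cyclase that raises cAMP, for 1 h before the assay. Each condition was assayed in duplicate, as biological replicates of this single line per the labels. Peaks had been called separately in each library, and overlapping peaks of the 4 lists were merged into 28335 regions. A region was assigned to a gene when it lay inside the gene or when its centre was within 100 kb of one of its transcription start sites (TSS). By this rule 63 regions belonged to the 10 genes, 8 of them to both Slc38a1 and Slc38a2, which are neighbours on chromosome 15. Distances below are those of a region's centre to the gene's nearest TSS, negative upstream, and coordinates are in mm9.

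Amino acid transporters of the SLC1, SLC7 and SLC38 families bring neutral, cationic and anionic amino acids into the cell, and SLC3A2 is the heavy chain that carries several SLC7 light chains to the membrane. When amino acids are scarce, the kinase GCN2 phosphorylates eIF2α, translation of ATF4 rises, and ATF4 with C/EBP partners acts on C/EBP-ATF elements in many transporter and amino acid synthesis genes. Elements of this kind have been described in the promoter of Slc7a11 and in an intron of Slc38a2. Osteoblasts take up large amounts of glutamine, proline and other amino acids to make collagen, and ATF4 is required for their differentiation. CREB belongs to the same family of basic leucine zipper proteins and binds the cAMP response element (CRE), whose full palindrome is TGACGTCA and whose core is TGACG.

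The C/EBP-ATF sequence TGATGCAA was found in a larger share of phospho-CREB regions at these genes than of regions elsewhere. The full CRE, searched across the whole region, was found in none of the 63 and in 3.89% of all regions. At so low a share, its absence from 63 regions does not set these genes apart. TGATGCAA, searched on both strands across the whole of each region, was present in 6 of the 63 regions (9.52%), against 1.37% of all 28335 regions. Those regions lay at the promoters of Slc7a11, Slc1a4 and Slc7a1, in an intron of Slc38a2, in an intron of Slc7a5, and 56519 bp downstream of the Slc7a5 TSS. Stretches around the sequence are shown here because they are what the regions share, with TGATGCAA or its reverse complement TTGCATCA in capitals.
Slc7a11 promoter, chr3:50247555-50247621, plus strand: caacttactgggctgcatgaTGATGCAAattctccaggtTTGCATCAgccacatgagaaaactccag
Slc1a4 promoter, chr11:20232702-20232731, plus strand: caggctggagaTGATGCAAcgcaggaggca
Slc7a1 promoter, chr5:149211065-149211094, minus strand: ggcgtggtgcaTGATGCAAcagcgggaggg
Slc38a2 intron, chr15:96529588-96529635, plus strand: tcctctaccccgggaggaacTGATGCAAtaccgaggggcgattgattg
Slc7a5 intron, chr8:124422475-124422522, minus strand: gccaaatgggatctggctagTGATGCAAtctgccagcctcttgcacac
Slc7a5 downstream, chr8:124374979-124375151, plus strand: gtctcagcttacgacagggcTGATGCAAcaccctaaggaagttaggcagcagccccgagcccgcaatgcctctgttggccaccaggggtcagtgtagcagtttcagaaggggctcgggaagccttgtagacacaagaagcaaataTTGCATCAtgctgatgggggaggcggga

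The Slc7a11 promoter held 2 copies in opposite orientation with starts 19 bp apart, in a stretch centred 53 bp upstream of the TSS, and the region downstream of Slc7a5 held 2 copies with starts 125 bp apart. Within 100 bp of the region centre, TGATGCAA was found in 4 of the 63 regions, against 0.903% of all, and 2 or more copies were found in 2 of the 63 and in 8 of all 28335 (0.0282%). The Slc1a4 copy spans the annotated TSS, and the Slc7a1 copy lies 401 bp downstream of the TSS in an intron, close to the end of its region. Counted by gene, 6 of the 10 transporters had a region with TGATGCAA, where 5.36% of 22225 protein-coding genes did by the same rule. One of the 6, Slc38a1, counts through the intron of Slc38a2. Restricted to regions within 1 kb of a TSS, the count was 4 of 10 (Slc1a4, Slc7a1, Slc7a11 and Slc38a2), and the share of all protein-coding genes was 0.342%. Among genes with any region within 1 kb, it was 4 of 7 transporters and 76 of 9892 protein-coding genes. These promoter counts take regions called in any library. Slc38a2 counts through its intron region, which was called in vehicle replicate 1 alone. The genes and the exact sequence were chosen with results of these data known, so these shares are descriptions and were not tested, and a sequence match does not show which protein was bound.

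The same promoter count, of regions called in any library, was made in related gene lists. Of 20 genes of the amino acid response and of serine, glycine and proline synthesis, 3 had such a promoter region: Chac1, which degrades glutathione, Shmt2, the mitochondrial serine hydroxymethyltransferase, and Pycr1, the last enzyme of proline synthesis. Of 22 other amino acid transporters only Slc6a9, a glycine transporter, had one, and of 10 genes of amino acid sensing through mTORC1 none did.

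**Figure D1:**
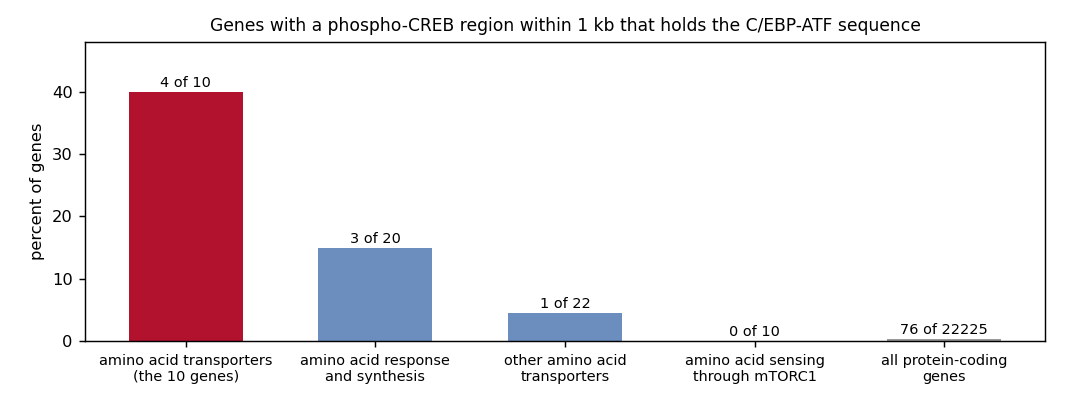
Bars give the percent of genes in each list with a phospho-CREB region that is centred within 1 kb of a TSS and holds the C/EBP-ATF sequence, with the number of genes above each bar. The 10 transporters stand at 40.0%, the amino acid response and synthesis list at 15.0%, and all protein-coding genes at 0.342%. Regions called in any library count, and Slc38a2 counts through a region of vehicle replicate 1 alone.

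CRE sequences near the region centre were no more frequent at the transporters than elsewhere. The full TGACGTCA within 100 bp of the centre was found in 0 of the 63 regions and in 3.53% of all regions. Its core TGACG, which is part of the full CRE, was found in 17 of the 63 (27.0%), near the 29.1% of all regions. Across the whole region the core was found in 26 of the 63 (41.3%), against 36.6%. The AP-1 sequence TGAGTCA, bound by FOS and JUN dimers, was found in 5 (7.94%), against 13.8%. TGATGNAA, the looser form that includes TGATGCAA, was found in 5 (7.94%), against 3.47% of all regions. The core sequences shown next belong to the transporter regions whose ranks are described below, with TGACG in capitals.
Slc3a2 promoter, chr19:8797696-8797724, plus strand: aatctccagcgaTGACGttttacccgcag
Slc3a2 intron, chr19:8787457-8787532, plus strand: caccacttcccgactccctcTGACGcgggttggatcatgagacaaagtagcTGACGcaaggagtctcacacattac
Slc1a4 promoter, chr11:20232826-20232870, plus strand: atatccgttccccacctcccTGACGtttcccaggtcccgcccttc
Slc38a2 promoter, chr15:96530162-96530206, minus strand: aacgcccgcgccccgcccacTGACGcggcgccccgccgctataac
Slc38a2 upstream, chr15:96560452-96560496, plus strand: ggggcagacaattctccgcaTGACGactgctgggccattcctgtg
Slc7a1 upstream, chr5:149301078-149301122, minus strand: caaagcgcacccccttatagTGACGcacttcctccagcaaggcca
Slc7a5 forskolin-only intron, chr8:124426017-124426061, plus strand: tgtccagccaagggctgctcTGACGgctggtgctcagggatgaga
Slc38a4 intron, chr15:96872488-96872532, plus strand: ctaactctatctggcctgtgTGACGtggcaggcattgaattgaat

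The lists hold 14686 and 10180 peaks for vehicle replicates 1 and 2, and 25566 and 19371 for forskolin replicates 1 and 2. Each peak has a score, the authors' deposited value, whose scale is not stated and which was used only to rank peaks inside a list as a percentile, where 100 is the top. Read totals were not given, so depth is not known directly. Low scores fell on whole multiples of a step within rounding. If 1 step is 1 tag, forskolin replicate 2 had 0.347 times the depth of forskolin replicate 1 and the vehicle libraries 1.03 and 1.06 times. Peak lists hold no expression, so the cell type could not be checked through RNA. Regions called in all 4 libraries lay within 10 kb of 3 of 8 pre-osteoblast marker genes and of 0 of 9 markers of muscle, adipocytes and blood. The share of all protein-coding genes was 37.5%, the same as for the pre-osteoblast markers, so these counts do not check the cell type.

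Most transporter regions were present with and without forskolin. Of the 63 regions, 33 (52.4%, 95% Wilson interval 40.3 to 64.2) were called in all 4 libraries, a class that held 31.5% of all regions. Another 12 (19.0%, interval 11.2 to 30.4) were forskolin-only, with a peak in both forskolin libraries and in neither vehicle library, close to the 18.3% of all regions. A single region was vehicle-only, where 0.441% of all regions were, and the other 17 had mixed calls. The intervals treat regions as independent, though many lie close together. Slc3a2 alone had 15 of the 63 regions and 11 of the 33 called in all 4 libraries. Regions of all 4 libraries were partly those of neighbouring genes. In 19 of the 63 the nearest TSS was within 1 kb and belonged to another gene, and 16 of these 19 were called in all 4 libraries. Of all regions within 1 kb of any TSS, 5984 of 10151 were called in all 4. Of the 28 regions whose nearest TSS belonged to a transporter, 12 were called in all 4 and 5 were forskolin-only. The forskolin libraries had 57 and 55 peaks in the 63 regions and the vehicle libraries 41 and 36, or 56.0 ± 1.41 against 38.5 ± 3.54 (SD, n = 2). The groups did not overlap, and the two-sided exact permutation test gave p = 0.333, the smallest p that 2 against 2 libraries allow. As a percent of each list's peaks, these were 0.223 and 0.284 with forskolin and 0.279 and 0.354 with vehicle, so the groups overlapped and the direction turned (exact permutation p = 0.667).

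**Figure D2:**
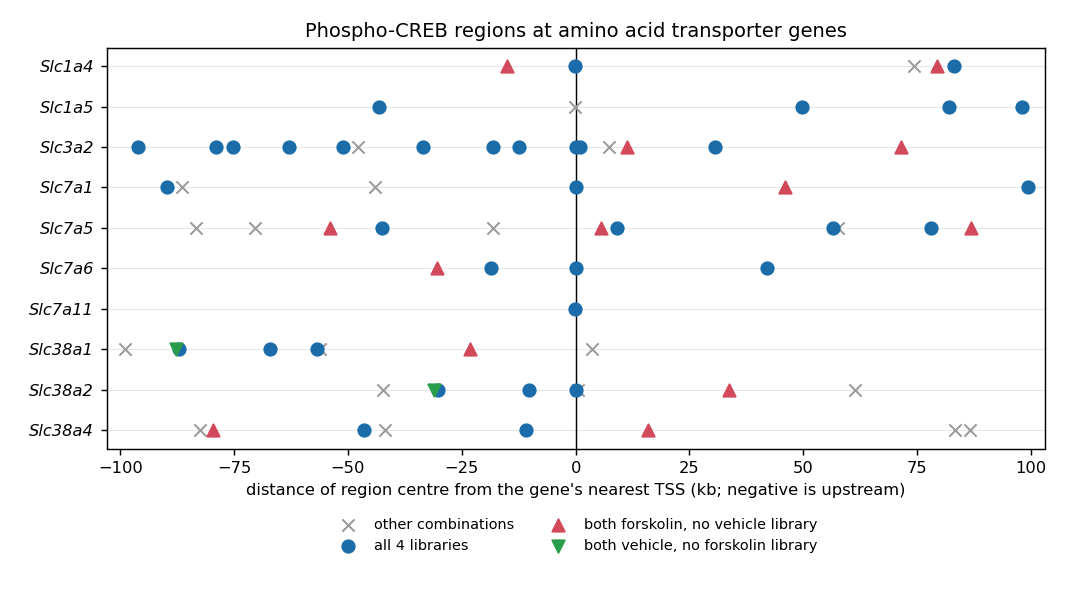
Each symbol is a phospho-CREB region, placed by the distance of its centre from the gene's nearest TSS in kb, with 1 line per gene and symbols for the libraries in which it was called. Regions called in all 4 libraries sit at the TSS of 6 genes, and none of the 12 forskolin-only regions lies within 1 kb of a TSS.

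At promoters, meaning within 1 kb of a TSS, 6 of the 10 transporters had a region of all 4 libraries, compared with 30.4% of 22225 protein-coding genes. A seventh, Slc1a5, had one missed in vehicle replicate 1, so 7 of 10 had any promoter region, compared with 44.5% of genes. Slc7a5, Slc38a1 and Slc38a4 had none within 1 kb. The amino acid response and synthesis genes had a promoter region of all 4 libraries in 17 of 20, the mTORC1 sensing genes in 10 of 10, and the other amino acid transporters in 7 of 22 (31.8%), near the share of all genes.

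Slc3a2 had the highest-ranked promoter among the 10. Its promoter region (chr19:8797568-8798015, in the 5' UTR exon at 68 bp) stood at the percentiles 97.1 and 96.0 with vehicle and 98.2 and 97.9 with forskolin. Both forskolin values were above both vehicle values, by a mean of 1.48 points. A region of all 4 libraries in the Slc3a2 intron at 903 bp (chr19:8787315-8787654), measured from a second TSS, stood at 89.9 and 80.4 with vehicle and 94.8 and 91.8 with forskolin. This is the intron stretch printed above, with 2 CRE cores 31 bp apart, and the groups again did not overlap. Slc3a2 lies in a dense part of chromosome 19 and had 15 regions, 8 of them within 1 kb of another gene. The highest-ranked, 12430 bp upstream, was 40 bp from the TSS of Wdr74 and stood at 99.7 and 99.6 with vehicle and 99.7 and 99.7 with forskolin.

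The light chains that pair with SLC3A2 differed at their promoters. Slc7a5 encodes LAT1, which exchanges glutamine for leucine and other large neutral amino acids, and it had no region within 1 kb of its TSS. Slc7a6 encodes y+LAT2, an exchanger of cationic and neutral amino acids, and its promoter region at 82 bp (chr8:108692570-108693145) stood at 77.8 and 0.501 with vehicle and 82.6 and 79.8 with forskolin. Forskolin exceeded vehicle by 42.0 points, but the gap came from vehicle replicate 2. It was 3.38 without that library and 80.7 without vehicle replicate 1. No Slc7a6 promoter region was called in every library when a larger overlap between peaks was asked. Its percentiles, with the low one of vehicle replicate 2, may therefore compare different positions. Slc7a11 encodes xCT, which imports cystine in exchange for glutamate. Its promoter region at -77 bp (chr3:50247384-50247840) was its only region by the rule and stood at 37.8 and 40.9 with vehicle and 23.4 and 40.3 with forskolin. All 4 values were in the lower part of the lists, and the groups overlapped. This region, with the paired C/EBP-ATF copies, held no CRE core.

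Slc7a1, Slc1a4 and Slc1a5, which act without SLC3A2, had promoter peaks in both conditions. Slc7a1, the cationic amino acid transporter CAT1 that takes up arginine and lysine, stood at 84.6 and 79.8 with vehicle and 84.3 and 90.9 with forskolin in its promoter region at 137 bp (chr5:149211068-149211618). Slc1a4, the neutral amino acid exchanger ASCT1, stood at 81.0 and 80.4 with vehicle and 84.3 and 80.5 with forskolin at -99 bp (chr11:20232582-20233048). In both genes the vehicle and forskolin values overlapped. No Slc7a1 promoter region was called in every library when a larger overlap between peaks was asked. The percentiles of the Slc7a1 promoter may therefore compare different positions. Slc1a5, the glutamine transporter ASCT2, had a weaker promoter region at -105 bp (chr7:17366395-17366786), with 36.9 in vehicle replicate 2, no peak in vehicle replicate 1, and 40.5 and 31.9 with forskolin. Its other regions all lay within 1 kb of other genes, the highest-ranked 81903 bp downstream and 237 bp from the TSS of Dact3.

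Slc38a2, the SNAT2 transporter of alanine, glutamine and other small neutral amino acids, had a promoter region at -23 bp (chr15:96529995-96530309). It stood at 66.5 and 50.6 with vehicle and at 84.0 and 78.3 with forskolin. The forskolin values did not overlap the vehicle values and their mean was 22.6 points higher, a gap that fell to 8.15 when each list was cut to its 10180 top-scoring peaks. The intron region with TGATGCAA, at 576 bp (chr15:96529403-96529703), was called in vehicle replicate 1 alone, at percentile 56.2.

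**Figure D3:**
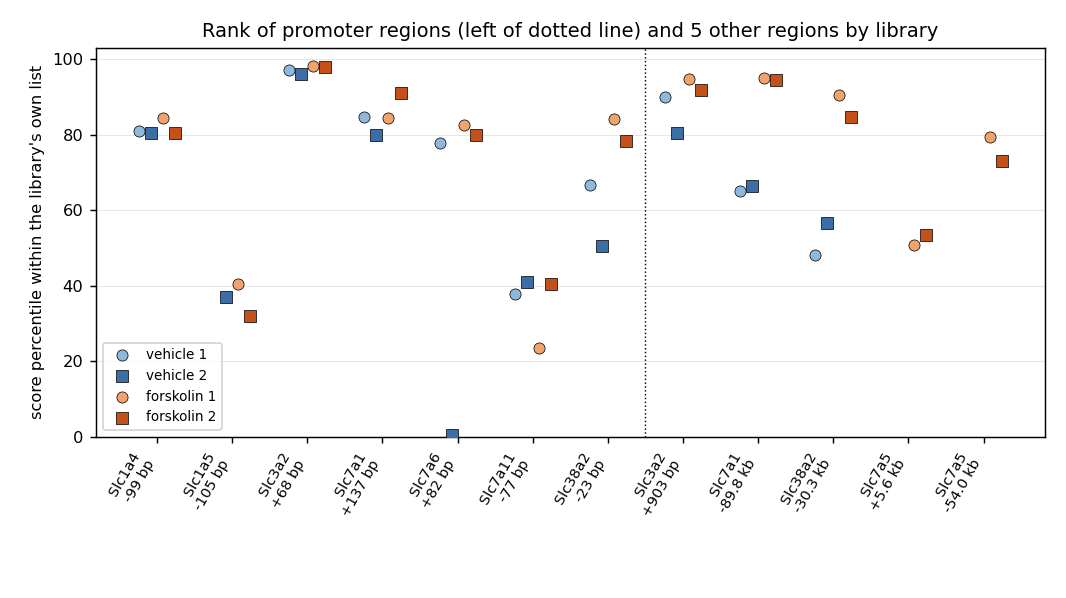
Points give the score percentile of a region within each library's own list (blue for vehicle, orange for forskolin, circles for replicate 1 and squares for replicate 2). The promoter region nearest the TSS of 7 genes is left of the dotted line, and 5 other regions are right of it. The regions upstream of Slc7a1 (65.2 and 66.4 to 94.9 and 94.5) and Slc38a2 (48.2 and 56.6 to 90.5 and 84.6) rank higher with forskolin, while the Slc3a2 promoter is above 95 in every library.

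Over 7 promoter regions, the one nearest the TSS in each gene, the median difference between forskolin and vehicle was 1.68 percentile points. Slc3a2 and Slc38a2 each had a further region within 1 kb, at 903 and 576 bp, that is not in this median. The one of Slc3a2 differed by 8.15 points, and the one of Slc38a2 was called in vehicle replicate 1 alone. The median turned to -0.233 in lists of equal length. It was -1.67 when ranks were taken among peaks in regions of all 4 libraries, so its sign is not settled. The SD between replicates of single promoters, pooled, was 16.1 points, and 5.80 without the Slc7a6 promoter. Ranks from lists of different lengths cannot show whether occupancy changed, and the differences are set here against those of all regions. In the 33 regions called in all 4 libraries, both forskolin percentiles were above both vehicle percentiles in 12 (36.4%), compared with 44.6% of 8930 such regions. The reverse order was found in 0, and in 2.51% of all such regions. Within 1 kb of a TSS the higher rank with forskolin was seen in 9 of 23 (37.2% of all such regions), and farther away in 3 of 10 (59.6% of all). Of the 23, 16 were at the TSS of other genes and 7 had a transporter TSS as the nearest. The median difference of the 33 regions was 1.48 points and that of all 8930 was 6.94.

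**Figure D4:**
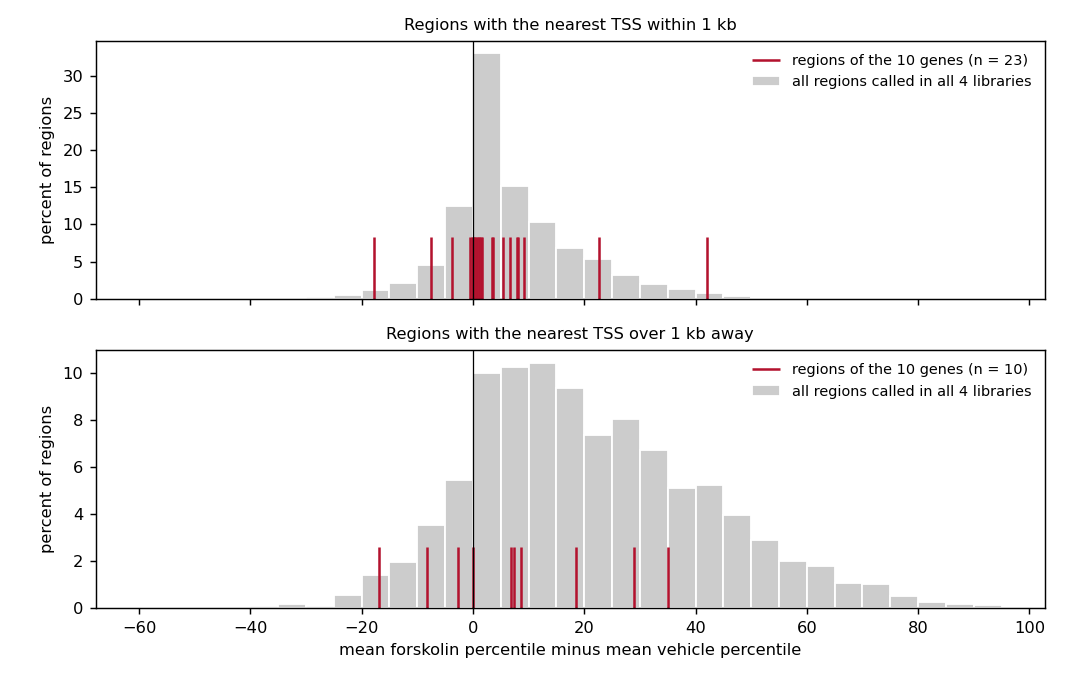
Grey bars give the percent of all regions called in all 4 libraries by the mean forskolin percentile minus the mean vehicle percentile, in bins of 5 points, and red lines mark the transporter regions. Most of the 23 regions within 1 kb of a TSS, of which 16 are at the TSS of other genes, lie near 0. Of the 10 farther regions, 2 lie above 28 points, within the range of regions that far from a TSS.

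The 3 regions over 1 kb from any TSS that ranked higher in both forskolin lists belonged to Slc7a1, Slc38a2 and Slc3a2. The Slc7a1 region at -89804 bp (chr5:149300946-149301623, intergenic) stood at 65.2 and 66.4 with vehicle and 94.9 and 94.5 with forskolin, a difference of 29.0 points with a pooled SD of 0.645 between replicates. Its nearest TSS was that of Ubl3, 63080 bp away, and the difference was 30.4 points in lists of equal length. The vehicle peaks of the 2 libraries did not overlap each other and were joined through the peak of forskolin replicate 1. For vehicle, the SD of this region therefore compares 2 positions and does not measure the replicate spread of 1 site. The CRE core shown for this region lies in the part covered by the vehicle replicate 2 peak alone. The Slc38a2 region at -30304 bp (chr15:96560229-96560638, intergenic) stood at 48.2 and 56.6 with vehicle and 90.5 and 84.6 with forskolin. The difference was 35.1 points, with a pooled SD of 5.14, and 32.5 in lists of equal length. Among all regions of all 4 libraries over 1 kb from a TSS, these differences exceeded 67.1% and 75.9% of the others, so they were not extreme there. The third, 62983 bp upstream of Slc3a2 and 2356 bp from the TSS of Taf6l, differed by 6.92 points. The only vehicle-only region of the 10 genes, at -31020 bp from Slc38a2 (chr15:96560967-96561331), lay 328 bp beyond the edge of that region. It stood at 33.3 and 56.6 in the vehicle lists and also counts for Slc38a1, so 2 of 10 transporters had a vehicle-only region by the rule, where 2.09% of genes did.

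Some regions had a lower mean percentile with forskolin. The region downstream of Slc7a5 with paired C/EBP-ATF copies (chr8:124374833-124375302) stood at 83.1 and 63.6 with vehicle and 69.0 and 44.1 with forskolin, a mean difference of -16.8 points with overlapping groups. Its nearest TSS was that of Klhdc4, 21598 bp away. The Slc38a2 region at -10348 bp, its highest-ranked by the mean of the 4 libraries but not in either forskolin list, stood at 86.7 and 69.8 with vehicle and 79.5 and 60.4 with forskolin, also with overlap. The Slc7a5 intron region with TGATGCAA, at 9064 bp (chr8:124422343-124422702), hardly differed, with 49.7 and 56.6 with vehicle and 53.0 and 53.3 with forskolin.

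Forskolin-only regions were found by the rule at 8 of the 10 transporters, compared with 40.1% of all protein-coding genes. The transporters had a median of 7 regions each and all protein-coding genes 4, and Slc38a1 and Slc38a2 count through 1 shared region. By region, the forskolin-only share was 19.0% against 18.3% of all regions. Within 10 kb of a TSS it was 1 of 10 transporters (8.88% of all genes), and within 1 kb 0 of 10 (3.11%). Slc1a5 and Slc7a11 had no forskolin-only region. With lists of equal length, which drop the lower-scoring forskolin peaks, 1 of the 12 remained. It was 1 of 46 transporter regions in those lists, below the 10.0% of all regions that were forskolin-only there. That one lay 54025 bp upstream of Slc7a5 in an intron of Banp (chr8:124485429-124485810) and stood at 79.5 and 73.1 in the forskolin lists. Slc7a5 had 2 more. Its intron region at 5574 bp (chr8:124425835-124426190), the one within 10 kb of a transporter TSS, stood at 50.7 and 53.3 and held 2 CRE cores in its whole length, of which the one nearer the centre is printed above. The region 86780 bp downstream, in an intron of Klhdc4, stood at 41.6 and 31.9.

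The other 9 forskolin-only regions ranked in the middle or lower part of the forskolin lists. Slc3a2 had one at 11248 bp with 53.0 and 50.5 and one at 71534 bp with 49.9 and 22.2. Slc38a4, the SNAT4 transporter of neutral and cationic amino acids, had one in its intron at 15938 bp with 49.9 and 27.2 and one at -79534 bp with 4.99 and 31.9. The Slc7a6 region at -30544 bp stood at 46.3 and 40.3. Slc38a1 encodes SNAT1, a glutamine transporter, and shared with Slc38a2 the region at -23133 bp, with 21.8 and 36.4. The Slc1a4 regions at 79457 and -15097 bp stood at 57.2 and 8.46 and, for the upstream one, below 10 in both lists. The Slc7a1 region at 46053 bp stood at 0.612 and 17.1. The median over the 12 was 48.1 in forskolin replicate 1 and 31.9 in replicate 2, near the 44.6 and 31.9 of all forskolin-only regions.

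All 8 regions of Slc38a4 had its own TSS as the nearest, and none lay within 1 kb of it. The highest-ranked, an intron region of all 4 libraries at -10882 bp from the nearest TSS (chr15:96872358-96872691), stood at 62.5 and 64.7 with vehicle and 81.7 and 60.4 with forskolin. Its CRE core stretch is printed above. At -41777 bp, a region missed in vehicle replicate 2 stood at 19.3 in vehicle replicate 1 and at 69.8 and 40.3 with forskolin. The highest-ranked regions near Slc7a5, Slc7a6 and Slc1a4 outside their promoters were at the TSS of Klhdc4, Prmt7 and Cep68, 39, 41 and 97 bp away.

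Several genes of the amino acid response and synthesis list had highly ranked promoter regions in both conditions, and others did not. Atf4, whose product activates many of these transporters, stood at 99.7 and 99.1 with vehicle and 99.8 and 99.7 with forskolin. Asns, asparagine synthetase, stood at 89.7 and 85.4 with vehicle and at 77.2 and 69.0 with forskolin. Eif2ak4, the gene of the kinase GCN2, ranked lower, at 48.2 and 13.3 with vehicle and 57.8 and 47.5 with forskolin. Both vehicle values were above both forskolin values in 6 of the 17 promoter regions of all 4 libraries in this list (Asns, Chac1, Eif2ak3, Mthfd2, Aldh18a1 and Pycr1), compared with 2.47% of all such regions within 1 kb of a TSS. The order was counted after the values were seen, and it held in 0 of the 10 mTORC1 sensing genes and 1 of 7 other transporters. Cebpb, a partner of ATF4, had no region within 1 kb and 3 forskolin-only regions by the rule. By the rule, forskolin-only regions were found at 15 of these 20 genes, 8 of the 22 other transporters and 3 of the 10 mTORC1 genes. The share of all protein-coding genes was 40.1%. Median regions per gene were 7.5, 5 and 6.5 in these lists, against 4 for all protein-coding genes. Among the other transporters, Slc1a3, which takes up glutamate, had a forskolin-only region 90 bp from its TSS, with 60.1 and 58.2. Rheb, the GTPase that activates mTORC1, stood at 96.6 and 94.0 with vehicle and 96.6 and 94.2 with forskolin.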

How the data were processed

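Phospho-CREB ChIP-seq peak lists of 4 libraries of MC3T3-E1 cells were used, 2 with vehicle and 2 with forskolin. Reads had been aligned with Bowtie and HOMER was used, with build mm9, per the submitters' processing notes. The notes list no versions, peak thresholds are not given in those sources either, and the input library was not used. The score per peak is the authors' deposited value in each list. Its scale is not stated, so it was turned into a mid-rank percentile within the list and no count model was fitted.

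Peaks sharing at least 1 bp were merged. Genes, TSS and sequences came from NCBIM37 with GENCODE M1, the same assembly as mm9, and all 28335 regions fell within its 21 chromosomes. Motifs were searched within 100 bp of the centre or, where stated, in the whole region. The 10 genes, the gene lists and the motifs were chosen with earlier results of these data known, and the exact TGATGCAA was chosen after its looser form had been counted. All 10 genes are named. For each, the regions within 1 kb of a TSS, those of 1 treatment alone and the highest-ranked are described, and others were picked after their values were seen. Lamtor1, Castor1 and Spi1 were matched by older symbols. Counts stand beside the share over all regions or genes, shares have 95% Wilson intervals that cover counting error only, and peak numbers had an exact permutation test. Merging was tested on simulated data. Python 3.11.15, numpy 2.4.6, scipy 1.17.1, pysam 0.24.0 and matplotlib 3.10.9 were used.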

Additional observations from a re-analysis of the deposited data

How the results depend on the processing

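Of 74 alternatives for counts and summaries, 55 left the value within the set limits (1.5 times for a count), 18 moved it further and 1 reversed it. For the median promoter difference the limit was the pooled SD of 16.1 points, which was 5.80 without the Slc7a6 promoter. Under that wide limit its changes from 1.68 to -0.233 and -1.67 count among the 55, although the sign turned. The forskolin-only count of 12 became 3 of 43 regions with the top-scoring 50% of each list, against 20.6% of all regions. With the same number of top-scoring peaks from each list it was 1 of 46, against 10.0%. It was 2 of 15 and 7 of 38 with windows of 10 and 50 kb, and 5 of 28 with nearest-TSS assignment. Without vehicle replicates 1 and 2 it was 17 of 62 and 13 of 63, against 29.6% and 19.9% of all regions. Without forskolin replicates 1 and 2 it was 16 of 60 and 16 of 59, against 30.6% and 42.4%. The vehicle-only count of 1 became 0 with the top 50% of each list and with peaks within 500 bp joined (0.323% and 0.224% of all regions). It was also 0 with the 10 kb window, and 4 of 46 with lists of equal length (6.88% of all regions). Leaving out 1 library at a time gave 1 to 2 vehicle-only regions, the 2 being without vehicle replicate 2. The vehicle-only shares of all regions were then 0.989% and 2.88% without vehicle replicates 1 and 2. They were 2.10% and 0.716% without forskolin replicates 1 and 2. The 33 regions of all 4 libraries became 9 of 15 and 21 of 38 with windows of 10 and 50 kb. With nearest-TSS assignment they became 12 of 28. The share of all regions was 31.5% under each of these settings. The 8 transporters with a forskolin-only region became 2 with the top 50%, 1 with lists of equal length, 2 with the 10 kb window and 4 with nearest-TSS assignment. The share of all protein-coding genes was not counted under these settings, so whether these drops are particular to the transporters was not tested. The narrower windows and nearest-TSS assignment cover fewer regions by construction. The difference in peaks reversed to -0.063 as a percent of each library's peaks. CRE cores were found in 26 regions when the whole region was searched (41.3%, against 36.6% of all regions).

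Of the 6 transporters with a promoter region of all 4 libraries, 4 were counted when an overlap of at least 50% of the shorter peak was asked (Slc7a1 and Slc7a6 were lost) and 4 with the top 50% of each list. In lists of equal length, the promoter differences of Slc1a4, Slc3a2 and Slc7a1 turned to -14.8, -0.233 and -7.15 points. The SD between replicates of these promoters was 1.93, 0.574 and 4.11 points, so the signs for Slc1a4 and Slc7a1 depend on the length of the lists.

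With a replicate block, the difference in peaks was again 17.5 and the sign-flip p was 0.5, the smallest that 2 pairs allow. Deviations of libraries with the same replicate number correlated at 0.188 over 8930 regions, and nothing in the labels says that a number marks a shared culture or day, so the numbers were not used as pairs. With 2 libraries per treatment and lists of unequal length, a peak missing from a list does not show that the site was unbound.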
